A study of Mus musculus with 4 samples.

Results

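The genes described here encode the receptors for dopamine, serotonin, noradrenaline and acetylcholine. They were chosen by gene symbol alone and number 49 of the 22609 gene symbols in the files: 5 dopamine receptor genes (Drd), 14 serotonin receptor genes (Htr), 9 adrenergic receptor genes (Adra, Adrb), 5 muscarinic acetylcholine receptor genes (Chrm) and 16 subunit genes of nicotinic acetylcholine receptors (Chrn). RNA sequencing measured their expression in 4 hippocampal libraries from female mice without ovaries (ovariectomized), all taken 24 h after global cerebral ischemia. Ischemia was produced by clipping both common carotid arteries for 20 min, 1 week after removal of the ovaries. The control group, labelled FLOX-control, has 2 libraries; the labels name these mice FLOX and say nothing more of their alleles. The other 2 libraries, labelled GFAP-ARO-KO, come from mice in which Cre recombinase under the promoter of Gfap deletes the loxP-flanked gene Cyp19a1, which encodes aromatase, which turns androgens into estrogens. The labels describe that promoter as driving Cre in astrocytes only. They give neither strain nor age, and do not say whether the libraries of a group came from separate animals, so p-values measure only the spread between these libraries. There is no sham group, so a difference made by ischemia and one present before it cannot be told apart.

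Neurons that release monoamines and acetylcholine lie mostly outside the hippocampus, in the midbrain, the raphe, the locus coeruleus and the basal forebrain, and send axons into it. Their receptors belong to a pair of architectures. Most are G-protein coupled receptors, which raise cyclic AMP through Gs, lower it through Gi or activate phospholipase C through Gq. The nicotinic receptors and the serotonin receptor encoded by Htr3a and Htr3b are ion channels opened by the transmitter. In the hippocampus these receptors are known for adjusting excitability, theta rhythm and synaptic plasticity.

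The libraries held from 27930696 to 34878375 reads assigned to genes, of which 25193 to 35200 fell on receptor genes. Cyp19a1, the targeted gene, had 3 and 2 reads in the FLOX-control libraries and 1 and 9 in the GFAP-ARO-KO libraries, too few to check the genotype labels. Markers of hippocampal fields were present in each library: summed over 6 genes of CA1 pyramidal cells they reached 841.3 to 977 CPM (reads scaled to a common library size, in units of counts per 1000000), and over 7 genes of dentate granule cells 274.9 to 399.2 CPM. Of the CA1 genes 2 fell and 0 rose (adjusted p under 0.05 by edgeR's quasi-likelihood test), and Mpped1 was at 322 to 350 CPM. Of the dentate genes 5 rose and 0 fell, and Calb1, which did not pass, was at 90.6 to 136 CPM. Over all tested genes 9.39% rose and 11.0% fell at that threshold. The second knockout library stood apart in 8 meningeal markers, which summed to 454.4 CPM there against 103.4 and 147.6 CPM in controls and 112.4 CPM in the first knockout library. All 9 microglia markers fell, with a sum of 510 to 569.6 CPM in controls and 268.4 to 279.5 CPM in knockouts. In bulk tissue, fewer cells of a type and less RNA per cell cannot be told apart.

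Among the receptor genes 5 differed between the genotypes. Htr1b, Htr7, Htr3a and Chrna7 fell in the knockout and Adra2a rose, by 1.39-fold to 2.25-fold. Of the 49 genes 36 had enough reads to be tested with edgeR's quasi-likelihood test, and 31 of these did not pass (Benjamini-Hochberg adjusted p under 0.05 over all 15011 genes tested). The 5 called genes are 13.9% of those tested, against 20.4% of all tested genes called, a share below that background. Calls of a higher level made up 9.39% of all tested genes and calls of a lower level 11.0%. The median log2 fold change (knockout minus control) was -0.20 over the 36 receptor genes and -0.0008 over all tested genes. In 18 of the 36 both knockout libraries lay below both controls, an arrangement seen in 32.8% of all tested genes, and in 6 both lay above, against 32.0% of all tested genes. The fitted fold was under 1.5 for 29 of the 36. Without the first or without the second FLOX-control library 0 of the 40 receptor genes then tested passed, when 5.87% and 5.29% of all tested genes did. Without the first GFAP-ARO-KO library 2 of the 36 were called higher and 9 lower, when 31.5% of all tested genes were called (15.6% higher and 15.9% lower). Without the second knockout library 1 of the 36 was called higher and 2 lower, when 18.1% of all tested genes were called (8.50% higher and 9.58% lower). With all 4 libraries 10 of the 36 had an unadjusted p under 0.05, against 36.5% of all tested genes.

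**Figure D1:**
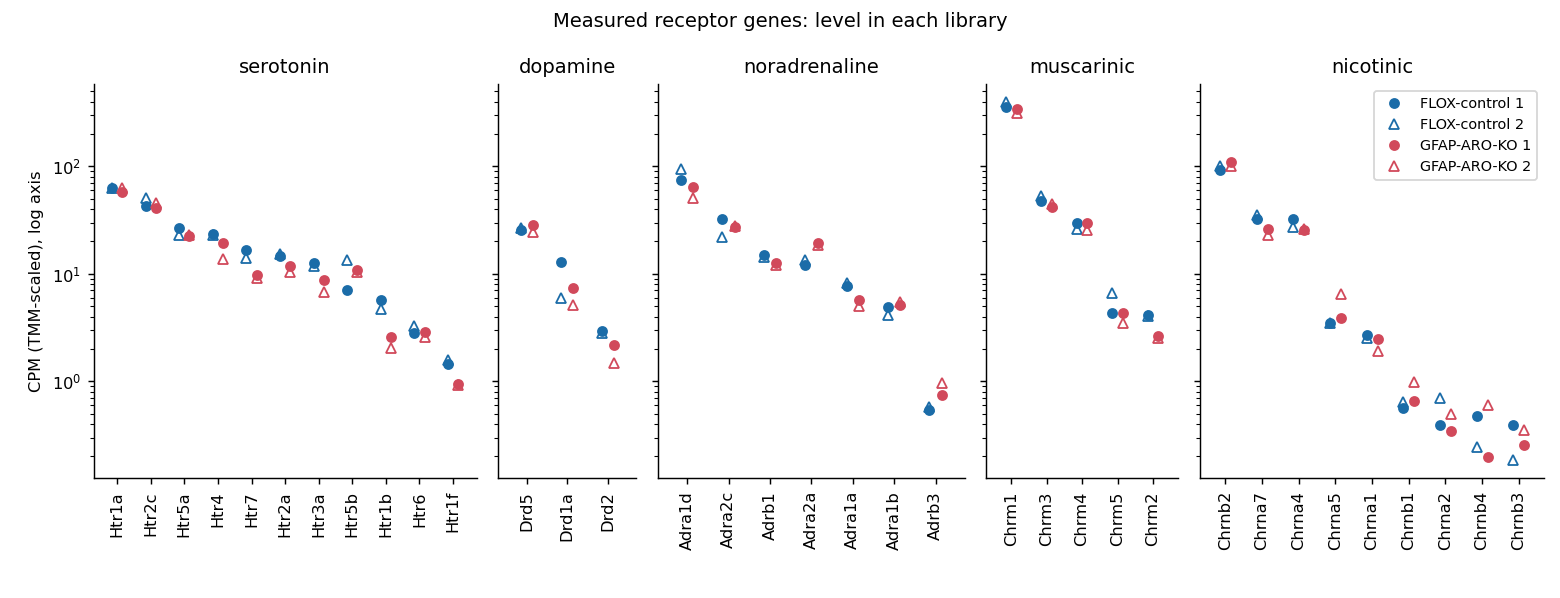
CPM on a log axis (scaled with TMM factors) of 35 receptor genes with enough reads, in each of the 4 libraries, by transmitter; blue marks are FLOX-control and red marks GFAP-ARO-KO libraries, filled circles replicate 1 and open triangles replicate 2. Chrm1 lies at 313 to 400 CPM in the 4 libraries, and the marks of Htr1b lie between 2.02 and 5.76 CPM, with both knockouts below both controls.

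Serotonin receptors held 3 of the 5 calls, all lower. Of 14 genes 11 were tested, of which 3 fell, 0 rose and 8 did not pass. The called share was 27.3% against 20.4% of all tested genes (11.0% called lower), and the median log2 fold change was -0.44. In 7 of the 11 both knockouts lay below both controls, an arrangement seen in 32.8% of all tested genes. Htr1b encodes the 5-HT1B receptor, a Gi-coupled receptor of axon terminals that lowers transmitter release. Its level was 5.76 and 4.74 CPM in controls and 2.59 and 2.02 CPM in knockouts, from 193, 155, 91 and 57 reads. The groups did not overlap, and Htr1b fell by 1.17 ± 0.24 on the log2 scale (± SE; adjusted p = 0.0169). Leaving out a library moved the log2 fold change between -1.38 and -1.01, and the call was lost without either control (adjusted p up to 0.122). In GENCODE vM1 on mm9 the gene spans chr9:81524950-81526222 on the minus strand, and its exons overlap D430036J16Rik on the other strand. No source used here states whether reads were counted by strand, so reads of such overlapping genes might not be separable; D430036J16Rik was at 1.70 and 1.90 CPM in controls and 1.68 and 1.67 CPM in knockouts (adjusted p = 0.815). Exons of Adra1d, Drd5, Chrm1, Chrm2 and Chrm4 also overlap a gene on the other strand.

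Htr7 and Htr3a were the other two serotonin receptor genes that fell. Htr7, on chromosome 19 (chr19:36033224-36131997, minus strand, mm9), encodes the Gs-coupled 5-HT7 receptor. It stood at 16.6 and 14.0 CPM in controls and at 9.74 and 9.22 CPM in knockouts, both knockouts being below both controls. Htr7 fell by 0.69 ± 0.16 (adjusted p = 0.0240). The call was lost without either control (adjusted p up to 0.203), where the log2 fold changes were -0.55 and -0.81. Htr3a (chr9:48707319-48719204, minus strand, mm9) encodes the subunit that every 5-HT3 channel needs, and is known in the hippocampus as a gene of inhibitory neurons. Its CPM was 12.6 and 11.8 in controls against 8.69 and 6.81 in knockouts, again without overlap. Htr3a fell by 0.64 ± 0.18 (adjusted p = 0.0408). That call was lost without the first control, the second control or the second knockout library, with an adjusted p of up to 0.223 and log2 fold changes of -0.59, -0.69 and -0.48. In a list of 9 genes that mark inhibitory neurons 2 fell and 7 did not pass. The called share was 22.2% against 20.4% of all tested genes (11.0% called lower). Their summed level ran from 1100 to 1126 CPM in controls and from 988.8 to 1049 CPM in knockouts. Gad1, the most abundant of them, was at 383, 344, 358 and 357 CPM across the controls and then the knockouts. Whether these neurons have a part in the difference of Htr3a was not tested. Htr7 and Htr1b are also known from the thalamus, which lies below the hippocampus. Of 8 thalamus markers 1 fell and 1 rose, a called share of 25% against 20.4% of all tested genes, and none was at 0. Their sum was 159.3 to 160.2 CPM in controls and 63.9 to 87.74 CPM in knockouts. Slc17a6, a glutamate transporter gene and the most abundant of them, stood at 117 and 111 CPM in controls and 11.1 and 19.7 CPM in knockouts. Without Slc17a6 the other 7 summed to 43.42 and 48.72 CPM in controls and 52.82 and 68.07 CPM in knockouts, so that the lower sum was that of 1 gene; Prkcd was the marker that rose (log2 fold change 0.74, adjusted p = 0.0284). The part of thalamic tissue in the difference of Htr1b and Htr7 was not tested.

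The other 8 tested serotonin receptor genes did not pass. Htr1a encodes the Gi-coupled 5-HT1A receptor, which hyperpolarizes pyramidal and granule cells. It was at 62.7 and 62.4 CPM in controls and 58.1 and 62.8 CPM in knockouts, with overlapping groups, and its log2 fold change was -0.05 ± 0.10 (adjusted p = 0.752). Htr2c, a Gq-coupled receptor gene also known from the choroid plexus, was at 42.4 and 50.8 CPM in controls and 40.9 and 45.4 CPM in knockouts, with overlapping groups (log2 fold change -0.11 ± 0.13, adjusted p = 0.559). Of 10 tested choroid plexus markers 2 rose and 1 fell, a called share of 30% against 20.4% of all tested genes. All 13 listed had reads. Their sum was 47.29 to 47.75 CPM in controls and 56.53 to 74.73 CPM in knockouts, where Htr2c itself did not pass. Kl, the most abundant of those markers, was at 26.0, 30.3, 32.9 and 31.2 CPM.

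Htr4 (Gs) and Htr2a (Gq) lay just outside the threshold. Htr4 was at 23.4 and 22.8 CPM in controls and 19.2 and 13.7 CPM in knockouts, with the second knockout well below the first; its log2 fold change was -0.48 ± 0.18 (adjusted p = 0.0912). Htr2a was at 14.7 and 15.3 CPM against 11.7 and 10.4 CPM (log2 fold change -0.44 ± 0.15, adjusted p = 0.0745). Without the first knockout library both passed as lower (adjusted p = 0.00278 for Htr4 and 0.0289 for Htr2a). Htr1f, another Gi-coupled receptor gene, was low, at 1.46 and 1.59 CPM in controls and 0.940 and 0.922 CPM in knockouts, and its groups did not overlap either (log2 fold change -0.71 ± 0.31, adjusted p = 0.140). Htr5a was at 22.6 to 26.5 CPM and Htr6 at 2.59 to 3.24 CPM over the 4 libraries, with log2 fold changes of -0.12 and -0.14. Htr5b differed 1.86-fold between the controls, 7.14 against 13.3 CPM, with both knockouts between them at 10.8 and 10.3 CPM (log2 fold change 0.05 ± 0.28). Its sign turned without the first control, to -0.33. Htr1d (2 to 7 reads a library), Htr2b (2 to 12 reads) and Htr3b, the partner subunit of Htr3a (1 or 2 reads), were not measured.

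**Figure D2:**
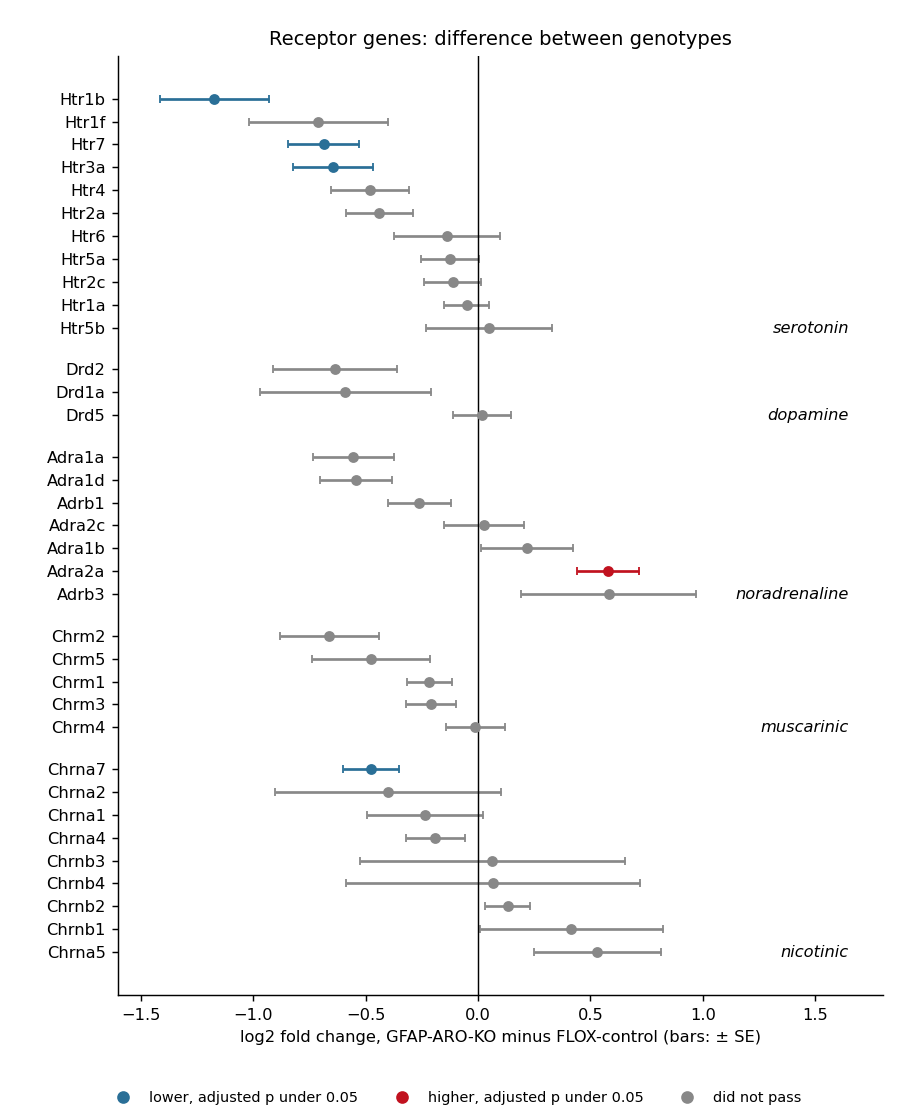
Log2 fold change (GFAP-ARO-KO minus FLOX-control) of 35 tested receptor genes by transmitter, with bars of 1 SE; colour marks an adjusted p under 0.05. Htr1b lies farthest from 0 at -1.17, and Adra2a, at 0.58, is the only called gene to the right.

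Promoters are shown for the called genes because these are the receptor genes that moved. Sequences come from RefSeq on GRCm38.p6, another build than that of the counts, and run 5′ to 3′ from 250 bases before to 50 bases after the annotated start. The table held a promoter for 26 of the 36 tested genes, with none for Htr3a. Motifs were searched on both strands: GGGCGG (GC box), CACGTG (E-box), TATAAA, TGACGTCA (cyclic AMP response element), TGANTCA (AP-1), GCGNGGGCG (EGR), TTCNNNGAA (STAT), the palindromic estrogen and glucocorticoid response elements. Capitals mark every match, and no matches overlap in these 4 sequences.
Htr1b, chr9:81633783-81634082, minus strand: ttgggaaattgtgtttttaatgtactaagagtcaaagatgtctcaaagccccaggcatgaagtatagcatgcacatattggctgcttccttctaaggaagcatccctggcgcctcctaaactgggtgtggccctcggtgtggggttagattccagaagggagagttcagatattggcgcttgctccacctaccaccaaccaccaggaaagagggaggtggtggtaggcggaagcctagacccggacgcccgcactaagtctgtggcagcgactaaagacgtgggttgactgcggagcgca
Htr7, chr19:36057311-36057610, minus strand: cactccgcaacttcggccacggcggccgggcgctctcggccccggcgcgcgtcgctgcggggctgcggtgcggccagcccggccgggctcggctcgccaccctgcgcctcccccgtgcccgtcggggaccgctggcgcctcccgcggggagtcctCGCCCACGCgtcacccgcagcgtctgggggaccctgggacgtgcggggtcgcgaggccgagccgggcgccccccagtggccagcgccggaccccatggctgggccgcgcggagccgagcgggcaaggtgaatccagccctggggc
Chrna7, chr7:63212477-63212776, minus strand: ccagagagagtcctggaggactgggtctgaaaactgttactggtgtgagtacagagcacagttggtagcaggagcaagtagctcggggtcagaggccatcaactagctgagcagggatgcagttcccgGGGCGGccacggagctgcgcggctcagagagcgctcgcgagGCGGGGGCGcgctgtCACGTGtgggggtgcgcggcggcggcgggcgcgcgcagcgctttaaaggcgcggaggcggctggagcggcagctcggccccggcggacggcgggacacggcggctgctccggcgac
Adra2a, chr19:54045009-54045308, plus strand: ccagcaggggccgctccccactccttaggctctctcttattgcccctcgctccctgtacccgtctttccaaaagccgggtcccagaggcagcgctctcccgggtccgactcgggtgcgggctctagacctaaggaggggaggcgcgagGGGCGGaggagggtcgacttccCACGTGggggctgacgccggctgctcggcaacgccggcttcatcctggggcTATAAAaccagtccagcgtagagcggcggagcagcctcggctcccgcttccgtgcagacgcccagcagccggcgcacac

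The 4 promoters differed in what they held. The Htr1b window had none of the searched motifs and a GC content of 53.3%, close to the median of 52.7% over all 32851 promoters in the table. The window of Htr7 was 81.0% GC and held 1 EGR motif. In Chrna7 the window had a GC box, an EGR motif and an E-box at 70.0% GC. The window of Adra2a, the gene that rose, had a GC box, an E-box and TATAAA at 68.7% GC. Of all promoters searched, 35.7% held the GC box, 7.15% the E-box, 13.6% TATAAA and 5.55% the EGR motif. AP-1 letters were in 7.81% and STAT letters in 8.30%. The cyclic AMP response element was in 1.79% of promoters, the estrogen response element in 0.07% and the glucocorticoid response element in 0.475%; in the 26 tested receptor genes with a promoter these last 3 had 0 matches. Of those 26 genes 17 held the GC box, 3 the E-box, 2 TATAAA and 2 the EGR motif. The median GC content of the promoters of tested receptor genes was 59.7%. A match is a description of letters and not of binding.

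Dopamine receptors gave 0 calls with edgeR among 3 tested genes, and 0 had an unadjusted p under 0.05; DESeq2 and limma-voom also called 0, against 21.3% and 20.3% of all tested genes. Drd5, a Gs-coupled receptor, was at 25.7 and 26.6 CPM in controls and 28.6 and 24.3 CPM in knockouts (log2 fold change 0.02 ± 0.13). Its sign turned to a value at or below 0 without the first control and without the first knockout. Drd1a, which encodes the other Gs-coupled dopamine receptor, was at 13.0 and 5.96 CPM in controls and 7.32 and 5.18 CPM in knockouts. The first control library alone was high: with all 4 libraries the log2 fold change was -0.59 ± 0.38 (adjusted p = 0.310), and without that library 0.08. In the same library 8 neocortex markers summed to 301 CPM, against 231.3 CPM in the other control and 218.4 and 214.2 CPM in knockouts. Of these markers 1 rose and 3 fell, a called share of 50% against 20.4% of all tested genes with edgeR. Rprm, among them, was at 95.0, 51.3, 46.7 and 37.6 CPM. Without Rprm the other 7 summed to 206.1 and 180.1 CPM in controls and 171.7 and 176.5 CPM in knockouts. The part of neocortical tissue in Drd1a was not tested. Drd2, Gi-coupled and known in the hippocampus from hilar mossy cells, was at 2.96 and 2.81 CPM against 2.16 and 1.49 CPM (log2 fold change -0.64 ± 0.27, adjusted p = 0.139). Both knockouts lay below both controls, and the gene passed as lower without the first knockout library (adjusted p = 0.0460). Of 3 mossy cell markers 1 rose and 1 fell, a called share of 66.7%. Their sum was 54.41 to 61.35 CPM in controls and 55.62 to 58.12 CPM in knockouts. That sum was led by Calb2, which did not pass, at 48.2, 54.1, 52.8 and 49.2 CPM. Of 6 tested striatum markers 1 rose and 0 fell, a called share of 16.7%. The striatum markers summed to 137.7 to 153.5 CPM in controls and 177.9 to 178.5 CPM in knockouts, led by Pde10a at 85.5, 94.8, 109 and 118 CPM. Without Pde10a, which did not pass, that sum overlapped between the groups (68.0, 42.85, 69.68 and 59.49 CPM). Striatal tissue is rich in Drd1a and Drd2, and the part of such tissue in their values was not tested. Drd3, with 0, 0, 1 and 2 reads in controls and then the knockouts, and Drd4, with 10, 3, 29 and 8, were not measured.

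Adrenergic receptors held the only rise. Of 9 genes 8 were tested. Adra2a rose and 7 did not pass, a called share of 12.5% against 20.4% of all tested genes. The median log2 fold change was 0.01. Adra2a (chr19:54119672-54123472, plus strand, mm9) encodes the Gi-coupled alpha-2A receptor, the autoreceptor of noradrenergic axons, which is also made by neurons that receive them. It was at 12.1 and 13.4 CPM in controls and 19.5 and 18.5 CPM in knockouts, from 405, 439, 686 and 523 reads. The libraries of each genotype lay close together and the groups did not overlap. Adra2a rose by 0.58 ± 0.14 (adjusted p = 0.0273), passed without either knockout library, and was lost without either control (adjusted p up to 0.203), where the log2 fold changes were 0.51 and 0.65. Adra2c, the sister Gi-coupled gene, was at 32.1 and 22.2 CPM in controls with the knockouts between them at 27.2 and 28.1 CPM (log2 fold change 0.03 ± 0.18). Its log2 fold change was -0.22 without the second control.

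The alpha-1 receptor genes, which act through Gq, did not pass. Adra1d was at 74.0 and 93.8 CPM in controls and 64.4 and 50.5 CPM in knockouts. Its log2 fold change was -0.54 ± 0.16 (adjusted p = 0.0521), and it passed with DESeq2 (adjusted p = 0.0104; DESeq2 called 11.6% of all tested genes lower) and without the first knockout library (0.00896). Adra1a was at 7.65 and 8.20 CPM against 5.67 and 5.07 CPM (log2 fold change -0.56 ± 0.18, adjusted p = 0.0661), and passed without the first knockout library (0.0375). Adra1b was at 4.96 and 4.10 CPM in controls and 5.10 and 5.46 CPM in knockouts (log2 fold change 0.22 ± 0.20). In both Adra1d and Adra1a the knockouts lay below both controls, and in Adra1b above.

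Adrb1 and Adrb3, Gs-coupled receptor genes, did not pass. Adrb1, the main beta receptor of the forebrain, was at 15.1 and 14.4 CPM in controls and 12.5 and 12.2 CPM in knockouts (log2 fold change -0.26 ± 0.14, adjusted p = 0.218). Adrb3 was at 0.538 and 0.581 CPM in controls and 0.740 and 0.957 CPM in knockouts, from 18 to 27 reads, and its groups did not overlap (log2 fold change 0.58 ± 0.39, adjusted p = 0.318). Adra2b was not measured, with 2 and 0 reads in controls and 4 and 15 in knockouts.

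Muscarinic receptor genes gave 0 calls with edgeR among 5 tested, DESeq2 and limma-voom also called 0, and 1 had an unadjusted p under 0.05 with edgeR. Of all tested genes edgeR called 20.4%, DESeq2 21.3% and limma-voom 20.3%. All 5 log2 fold changes were below 0 with all 4 libraries and the main filter and scaling, as were 50.1% of those of all tested genes; that of Chrm4 was above 0 with upper-quartile scaling, with a minimum count of 30, and without the first control or the second knockout library. Chrm1 encodes the Gq-coupled M1 receptor, the main muscarinic receptor of pyramidal cells. It took 35.1% to 37.11% of all receptor reads, at 358 and 400 CPM in controls and 338 and 313 CPM in knockouts. Its knockouts lay below both controls, and the log2 fold change was -0.22 ± 0.10 (adjusted p = 0.160). Chrm3, also Gq-coupled, was at 47.3 and 52.5 CPM against 41.7 and 44.7 CPM (log2 fold change -0.21 ± 0.11, adjusted p = 0.217). Chrm2, the Gi-coupled receptor known from cholinergic terminals and some interneurons, was at 4.12 and 4.07 CPM in controls and 2.62 and 2.55 CPM in knockouts. The libraries of each genotype differed by at most 1.03-fold, but the counts were low, from 72 to 138 reads, and the log2 fold change of -0.66 ± 0.22 missed the threshold (adjusted p = 0.0699). Chrm4, Gi-coupled as well, was at 25.6 to 29.7 CPM with overlapping groups (log2 fold change -0.01 ± 0.13). Chrm5 differed 1.51-fold between the controls, at 4.36 and 6.58 CPM, against 4.33 and 3.47 CPM in knockouts (log2 fold change -0.47 ± 0.26, adjusted p = 0.232).

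Of 16 nicotinic subunit genes 9 were tested. Chrna7 fell and 8 did not pass, a called share of 11.1% against 20.4% of all tested genes. The median log2 fold change was 0.06. Chrna7 (chr7:70243578-70357455, minus strand, mm9) encodes the alpha-7 subunit, which forms a calcium-permeable channel by itself and is abundant on hippocampal interneurons. It was at 32.6 and 35.6 CPM in controls and 26.0 and 23.0 CPM in knockouts, from 1092, 1163, 912 and 649 reads. The groups did not overlap, and Chrna7 fell by 0.48 ± 0.12 (adjusted p = 0.0354). The call was lost without the first control, the second control or the second knockout library (adjusted p up to 0.240), while the log2 fold change stayed between -0.57 and -0.38.

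The subunits of the heteromeric alpha-4 beta-2 receptor, the other main nicotinic receptor of the forebrain, did not pass. Chrnb2 was at 92.2 and 100 CPM in controls and 110 and 101 CPM in knockouts (log2 fold change 0.13 ± 0.10, adjusted p = 0.385). Chrna4 was at 32.3 and 27.0 CPM against 25.7 and 26.2 CPM (log2 fold change -0.19 ± 0.13, adjusted p = 0.334). Chrna5, an accessory subunit that joins this receptor, was at 3.49 and 3.52 CPM in controls, 3.84 CPM in the first knockout and 6.45 CPM in the second. The second knockout alone was high: the log2 fold change was 0.53 ± 0.28 (adjusted p = 0.216), 0.88 without the first knockout library (adjusted p = 0.0122) and 0.14 without the second. That library is the one with the high sum of meningeal markers, led by Igf2 at 25.8 and 37.0 CPM in controls and 27.7 and 225 CPM in knockouts. It also had 302.6 CPM over 7 mural cell markers, against 79.35 to 108 CPM in the other libraries, with Acta2 at 114 CPM. The part of these cells in Chrna5 was not tested.

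The remaining nicotinic genes were low. Chrna1 and Chrnb1, subunits of the muscle receptor, were at 1.91 to 2.69 CPM and 0.567 to 0.993 CPM. Of 5 skeletal muscle markers 3 were tested, with a called share of 33.3% against 20.4% of all tested genes. Acta1 rose, at 7.53, 6.45, 14.0 and 11.2 CPM, and Mylpf and Myh4 did not pass, with log2 fold changes of -0.16 and -0.15. The sum of the 5 was 7.524 to 9.168 CPM in controls and 12.62 to 15.29 CPM in knockouts, and without Acta1 1.07 to 1.643 CPM and 1.338 to 1.418 CPM. Chrna2, a gene of interneurons of the stratum oriens, was at 0.342 to 0.703 CPM. Chrnb3 and Chrnb4 rested on 6 to 17 reads a library, and their log2 fold changes of 0.06 and 0.07, with SE of 0.59 and 0.65, turned below 0 with a library left out. Chrna3, the partner of Chrnb4 in the medial habenula, had 7 to 14 reads and was not measured. The called share of 2 tested habenula markers was 50%. Gpr151 rose (1.11, 2.08, 4.53 and 3.19 CPM, log2 fold change 1.30, adjusted p = 0.0361) and Tac2 did not pass (5.88, 5.32, 4.36 and 3.79 CPM, log2 fold change -0.45). With Pou4f1, which was not measured, they summed to 7.048 to 7.432 CPM in controls and 7.09 to 8.913 CPM in knockouts.

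Another 6 nicotinic genes were not measured. Chrna6 had 3 to 8 reads, Chrna9 3, 0, 1 and 0, Chrne 1 to 3, and Chrnd 0, 0, 0 and 4. Chrng had 0 reads in all 4 libraries, and a count of 0 allows up to 0.0854 to 0.106 CPM (3 counts, for counting error only). Chrna10, known from the inner ear, had 0 reads in both controls and 8 and 17 in knockouts. With no filter on low counts it was called higher (adjusted p = 0.0274 by edgeR, where 15.7% of all genes were called and 7.28% called higher). It entered that test only through its knockout reads, so the call is void.

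**Figure D3:**
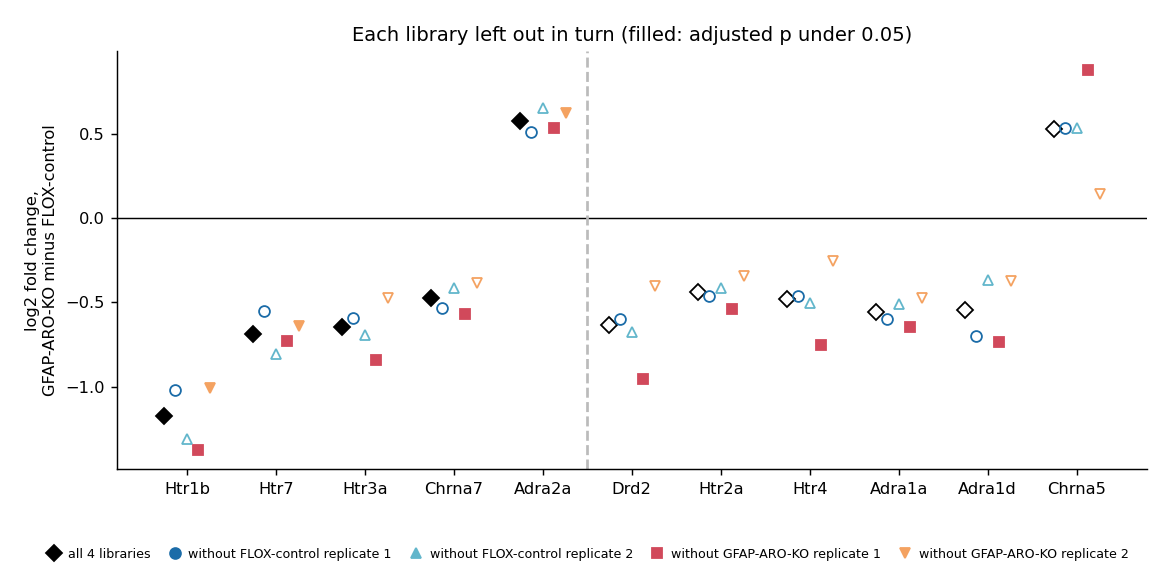
Log2 fold change of the 5 called genes (left of the dashed line) and of 6 genes called in at least 1 alternative (right), with all 4 libraries and with each left out in turn; filled marks have an adjusted p under 0.05. No mark is filled without either FLOX-control library, and the 6 genes on the right are filled without the first GFAP-ARO-KO library, where Chrna5 reaches 0.88.

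By signaling class, 1 of 8 tested Gs-coupled genes fell (Htr7), a called share of 12.5% against 20.4% of all tested genes. Among Gi-coupled genes 1 of 9 rose (Adra2a) and 1 fell (Htr1b), a share of 22.2%. Of 8 tested Gq-coupled genes 0 passed with edgeR and limma-voom and 1 with DESeq2 (Adra1d). With edgeR 3 had an unadjusted p under 0.05, near the 36.5% of all tested genes. In 6 of the 8 both knockouts lay below both controls, an arrangement seen in 32.8% of all tested genes. Gq genes had the lowest median log2 fold change of these classes, at -0.33, against -0.20 for Gs and -0.12 for Gi. Of 10 tested channel subunits 2 fell and 0 rose, a called share of 20% against 20.4% of all tested genes (11.0% called lower). Their median was -0.06. Htr5b was left out of the classes.

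Levels can be compared between genes only per length. Divided by the exon length in GENCODE vM1, the receptor genes with the highest control means were Chrm1 (60.4 CPM per kilobase), Adra1d (44.1), Chrm3 (25.6), Chrnb2 (17.9) and Htr1a (14.1). Next came Chrm4 (10.1), Drd5 (9.34), Adra2c (8.49) and Chrna7 (7.50). The called genes were of middle level: Htr3a (5.85), Htr7 (4.49), Htr1b (4.13) and Adra2a (3.36) had control means below that of Chrna7. In knockouts the means per kilobase were 5.39 for Chrna7, 3.72 for Htr3a, 2.79 for Htr7, 1.81 for Htr1b and 5.01 for Adra2a, so that Adra2a stood above Htr3a and Htr7 instead of below them. Adra1d, Chrm3, Chrm5 and Htr1b have models with under 300 non-coding bases in that annotation, which would overstate their level per length if the counting annotation had longer ends.

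**Figure D4:**
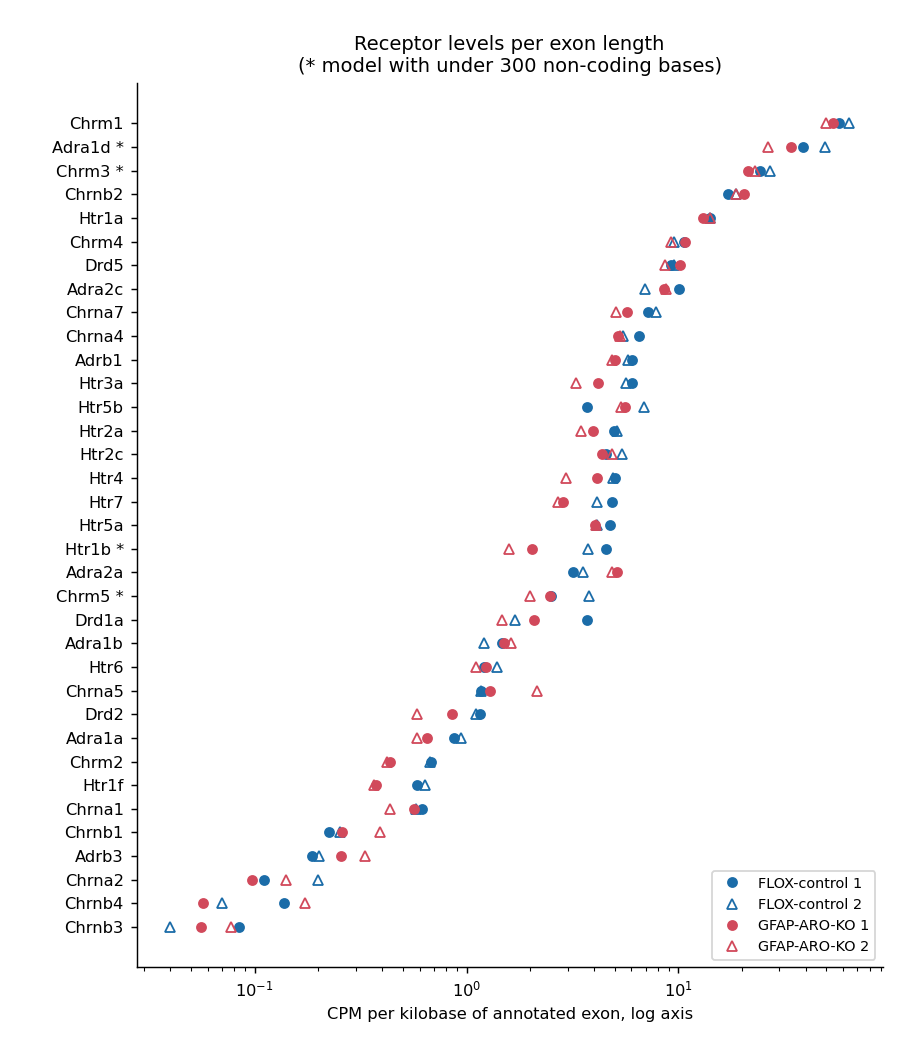
CPM per kilobase of annotated exon on a log axis for 35 tested receptor genes in each library, ordered by the control mean; blue is FLOX-control and red GFAP-ARO-KO, filled circles replicate 1 and open triangles replicate 2. Chrm1 is at the top with a control mean of 60.4, and a star marks the 4 genes whose models have under 300 non-coding bases.

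Genes of transmitter supply come first. Of 21 genes that make, carry and remove the monoamines, 17 were tested; Ddc rose, Qdpr fell and 15 did not pass, a called share of 11.8% against 20.4% of all tested genes. Ddc encodes the decarboxylase that finishes dopamine and serotonin synthesis. It was at 5.02 and 3.82 CPM in controls and 7.77 and 7.73 CPM in knockouts, and rose by 0.81 ± 0.20 (adjusted p = 0.0308), a call lost without either control (adjusted p = 0.0837 and 0.239). Qdpr, which recycles the tetrahydrobiopterin that the hydroxylases use, was at 198 and 182 CPM against 111 and 124 CPM. Qdpr fell by 0.69 ± 0.10 (adjusted p = 0.00623) and passed with each library left out. Of 8 oligodendrocyte markers 4 fell and 0 rose, a called share of 50% against 20.4% of all tested genes. Their sum was 4190 to 4435 CPM in controls and 3649 to 3990 CPM in knockouts. Whether these cells have a part in the difference of Qdpr was not tested. Th, Tph2 and Dbh, enzymes of the monoamine cell bodies, were at no more than 2.42 CPM in any library and did not pass. Dbh, which makes noradrenaline from dopamine, differed by -1.11 ± 0.35 on the log2 scale (adjusted p = 0.0605). The transporter genes Slc6a2 and Slc6a4 had 0 to 5 reads.

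Of 16 genes of acetylcholine synthesis and removal and of nicotinic receptor partners, 14 were tested, 1 rose, 2 fell and 11 did not pass, a called share of 21.4% against 20.4% of all tested genes. Ric3 and Tmem35 encode proteins that help nicotinic receptors to fold. Ric3, a chaperone of the alpha-7 receptor among others, was at 116 and 119 CPM in controls and 162 and 182 CPM in knockouts, and rose by 0.54 ± 0.10 (adjusted p = 0.0118). Tmem35, whose product is the alpha-7 chaperone NACHO, was at 93.3 and 89.5 CPM against 66.7 and 72.0 CPM, and fell by 0.40 ± 0.10 (adjusted p = 0.0296). Lypd1, a lynx-family gene that dampens nicotinic receptors, was at 163 and 127 CPM in controls and 98.0 and 81.4 CPM in knockouts, and fell by 0.69 ± 0.15 (adjusted p = 0.0203). Ric3 and Tmem35 were lost without either control (adjusted p from 0.0762 to 0.197). Lypd1 was lost without the first control (0.115) and without the second knockout library (0.0602). Chat, the enzyme that makes acetylcholine, had 0 to 3 reads a library.

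The next lists hold genes that act behind the receptors. Of 29 genes of G proteins, cyclases and phospholipases 1 rose, 8 fell and 20 did not pass, a called share of 31.0% against 20.4% of all tested genes. Plcb1, the phospholipase that Gq activates in hippocampal neurons, was at 342 and 344 CPM in controls and 224 and 234 CPM in knockouts, and fell by 0.58 ± 0.09 (adjusted p = 0.00643). Plcb3, another phospholipase of the same family, was at 24.8 and 27.4 CPM against 13.9 and 15.7 CPM and fell by 0.82 ± 0.14 (adjusted p = 0.00826). The cyclase gene Adcy8 was at 26.5 and 22.7 CPM against 13.8 and 12.6 CPM and fell by 0.90 ± 0.15 (adjusted p = 0.00747), and the cyclase gene Adcy2 was at 198 and 196 CPM against 134 and 140 CPM and fell by 0.53 ± 0.09 (adjusted p = 0.00947). Among the 29, Plcb1 and Plcb3 were the 2 that passed when the first FLOX-control library was left out, and Plcb1 and Adcy8 the 2 that passed when the second was.

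Of 30 genes of receptor desensitization, RGS proteins, phosphodiesterases and effectors, 2 rose, 5 fell and 23 did not pass. The called share was 23.3%, against 20.4% of all tested genes. RGS proteins speed the switching off of G proteins. Rgs4 was at 406 and 306 CPM in controls and 182 and 152 CPM in knockouts and fell by 1.09 ± 0.16 (adjusted p = 0.00628), and Rgs20 was at 24.8 and 22.8 CPM against 10.9 and 10.3 CPM and fell by 1.17 ± 0.14 (adjusted p = 0.00315). Adrbk2, a kinase that desensitizes receptors, was at 129 and 129 CPM against 190 and 174 CPM and rose by 0.49 ± 0.10 (adjusted p = 0.0136). Ppp1r1b, the target of dopamine and cyclic AMP signals known as DARPP-32, was at 47.5 and 38.1 CPM against 86.4 and 91.5 CPM and rose by 1.05 ± 0.13 (adjusted p = 0.00334). Rgs4, Rgs20 and Ppp1r1b passed with each library left out, while Adrbk2 was lost without either control (adjusted p = 0.0898 and 0.0975), at log2 fold changes of 0.50 and 0.49. The number of calls over this list moved with the library left out, as did that over all genes.

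**Figure D5:**
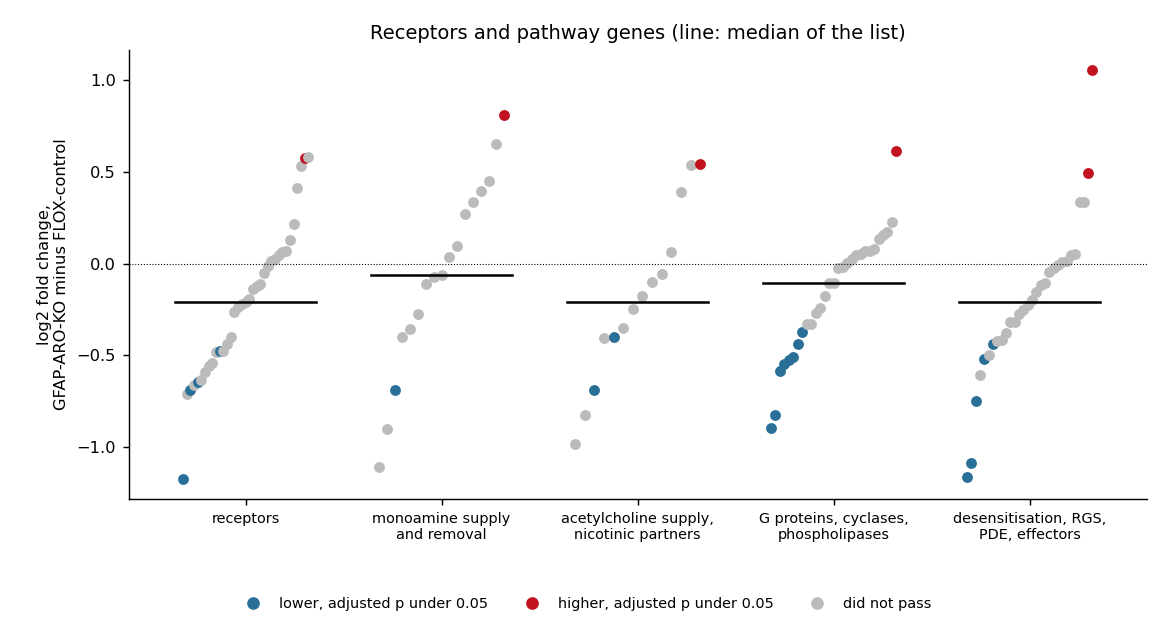
Log2 fold change (GFAP-ARO-KO minus FLOX-control) of 35 tested receptor genes and of the tested genes in 4 pathway lists, sorted within each; blue and red points passed as lower and higher, grey points did not pass, and the line is the median. Rgs20 at -1.17 and Ppp1r1b at 1.05 are among the called genes of the last list.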

How the data were processed

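RNA sequencing of total RNA gave 4 hippocampal libraries (50-base single-end reads, per the labels' protocols), 2 per genotype. The authors deposited raw read counts per gene; per the submitters' processing notes TopHat2 2.0.8b, HTSeq and the mm9 genome were used. No source used here states the HTSeq version, annotation or strand setting. The 5 tally rows that name no gene held 45.17% to 47.3% of the deposited counts and were left out.

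Counts of all 22609 genes were filtered with filterByExpr (minimum count 10, minimum total 15), scaled by TMM and tested with edgeR 4.0.16 (robust quasi-likelihood, R 4.3.3), with Benjamini-Hochberg adjustment over 15011 genes and a threshold of 0.05. CPM values use the TMM-scaled library size. Members and lists were chosen with earlier results of these data known. Of the tested receptor genes 35 are reported by name, and 1 receptor gene and 1 marker gene are not reported here; of each pathway list up to 4 called genes with the smallest p are named, and of each printed marker list but microglia the most abundant. Genes outside that rule are named after their values were seen. Exon lengths come from GENCODE vM1 and promoters from RefSeq (GRCm38.p6). The alternatives tried comprised scaling by RLE or upper quartile, testing without a filter, a minimum count of 30, legacy and non-robust estimation, DESeq2 1.42.0, limma-voom (limma 3.58.1), a replicate block and leaving out each library. With a library left out, 1 group has a single library, assumed to vary like the other group. The procedure was tested on simulated data, where it recovered 38% of 50 genes changed 1.5-fold and 82% of 50 changed 2-fold. All genes changed 4-fold or 8-fold were recovered, and 5.33% of calls fell on unchanged genes. A gene that did not pass may therefore still differ. Replicates differed beyond counting noise (chi-square per degree of freedom 13.83 in controls and 25.99 in knockouts).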

Additional observations from a re-analysis of the deposited data

How the results depend on the processing

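All 5 receptor calls passed with each other scaling, filter, estimation setting and tool, and were lost without either control library; Htr3a and Chrna7 were also lost without the second knockout library. The 5 genes kept their direction in each of these fits. With a library left out, receptor genes called higher ranged from 0 to 4 and called lower from 0 to 9 (of 39 or 40 tested), and all genes called from 813 to 4821. Of the 4 called higher, 2 (Adra2b and Chrna10) entered the test only through the knockout library where they were high, so those calls are void. Called genes ranged from 1 to 5 for monoamine supply, 0 to 6 for acetylcholine supply and partners, 2 to 13 for G proteins, cyclases and phospholipases, and 3 to 12 for desensitisation and effectors. With all 4 libraries 17, 14, 29 and 30 genes of these lists were tested, in the order given. With a library left out, each list had its fewest calls without a control and its most without the first knockout library. The share of all tested genes called, given in the Results for each library left out, was also lowest and highest there. With no filter 2 receptor genes were called higher, the second being Chrna10, whose call is void there too. The cause of these changes was not tested.

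Signs turned only in receptor genes that did not pass. Upper-quartile scaling gave a log2 fold change of 0.013 for Chrm4, and a minimum count of 30 gave 0.004. Limma-voom gave -0.027 for Chrnb4. With a library left out, log2 fold changes ranged from -1.049 to 0.084 for Drd1a, -0.108 to 0.138 for Drd5, -0.097 to 0.005 for Htr1a, -0.229 to 0.02 for Htr2c, -0.326 to 0.563 for Htr5b and -0.218 to 0.325 for Adra2c. The same ranges ran from -0.126 to 0.101 for Chrm4, -0.761 to 0.081 for Chrna2, -0.368 to 0.707 for Chrnb3 and -0.84 to 0.727 for Chrnb4. Over the 35 receptor genes reported by name and all alternatives 413 values kept direction and side of the threshold, 12 lost the call, 7 gained one and 17 changed sign.

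With the replicate number as a block, 1 receptor gene was called higher and 4 lower, and 3194 genes in all; Dbh then passed as lower (adjusted p = 0.0436). The numbers were not shown to pair the libraries: the differences between replicates 1 and 2 correlated at -0.017 between genotypes across 15011 genes, which are not independent replicates.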
